A study of Mus musculus with 4 samples.

Results

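Ribosome loading, the number of ribosome footprints found for each unit of mRNA, was described in tibialis anterior muscle of mice treated with an exon-skipping vector. Every gene of the deposited table was taken, 1000 of 1000, and its footprint reads were set against its mRNA reads in the treated libraries. The mice were of the Dmd Dup2 genotype, a model in which exon 2 of the dystrophin gene is duplicated. The treatment was scAAV9.U7-ACCA, a vector built on adeno-associated virus 9 with a self-complementary genome, which carries a U7 small nuclear RNA made to change splicing. The comparison group was an untreated control of the same genotype and muscle, so both groups carry the duplication. There were 4 libraries, 1 of mRNA and 1 of footprints in each group. The sources used here do not give the vector dose, the time after treatment, the age and sex of the mice, the number of animals behind each library or any pooling.

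A ribosome shields the stretch of mRNA that it is reading. In ribosome profiling the unshielded RNA is digested and the shielded fragments, the footprints, are sequenced, so that footprints report ribosomes on coding sequence. Divided by the mRNA reads of the gene, they give a measure of how densely its transcripts are occupied, often called translation efficiency. In skeletal muscle most ribosomes serve a small number of very abundant contractile and metabolic mRNAs. mRNAs that encode the translation machinery are known to be held back from ribosomes by a run of pyrimidines at their 5′ end, the TOP motif, when growth signalling is low.

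A pair of properties of the measure bears on each value below. Footprints lie in coding sequence, whereas mRNA reads can come from the whole transcript, and transcript lengths were not used here. The mRNA reads are also the denominator, so a gene whose mRNA reads are high for any reason has a lower value by construction. Values are given relative to the median gene of the same pair of libraries, as a fold or as its log2, which removes the library scaling. Each carries an exact binomial 95% interval that covers counting error only, and reads had no molecular identifiers. Genes are called higher or lower where they lay at least 2-fold from the median gene, with the interval wholly on that side and at least 50 reads in the pair of libraries together. With 1 library per group no replicate error exists, no test between conditions was made, and a call describes these libraries.

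The listed genes held 4248818 mRNA reads and 1664122 footprint reads in treated muscle, and 125236 and 3349015 in untreated muscle. The median gene had 705 mRNA reads and 297 footprint reads in the treated pair, but 25 and 626 in the untreated pair. The median half-width of a gene's interval was therefore 0.21 on the log2 scale in treated muscle and 0.62 in untreated muscle. The rows of the table stand in falling order of untreated mRNA reads, which reach down to 14, so the listed genes are those most read in that 1 library. Of 18 skeletal muscle fibre markers 17 were listed, as the tissue label says, and they held 453847 CPM (the authors' normalized value) in treated mRNA. None of the 7 red blood cell, 7 lymphocyte and 6 nerve markers was listed. Of the endothelial and smooth muscle, adipocyte and tendon markers 1 each was listed (Acta2, Fabp4 and Thbs4).

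Loading spread widely across genes. Of 997 genes with enough reads, 175 (17.6%) were higher than the median gene and 220 (22.1%) were lower, together 39.6%, while 602 were called neither way. The gene at the 10th percentile lay at 0.273 of the median gene and that at the 90th at 2.52 times it, a 9.24-fold distance. The standard deviation was 1.29 log2 units, and counting error accounted for 0.994% of that variance. Raw values had a median of 0.479 footprint reads for each mRNA read. Higher genes made up 44.3% of the called genes against the median gene, but 60.8% (258 higher, 166 lower) against the listed totals and 60.7% (256 and 166) against the authors' normalized values, since the median gene lies 0.29 and 0.28 log2 units above those references. Genes just past 2-fold below the median gene, such as Utrn and Col3a1, lose their call there. Across the 1000 genes, log2 mRNA and footprint reads correlated with Pearson's r of 0.769 and Spearman's rho of 0.641. Those points share 2 libraries, and genes are not independent replicates.

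**Figure D1:**
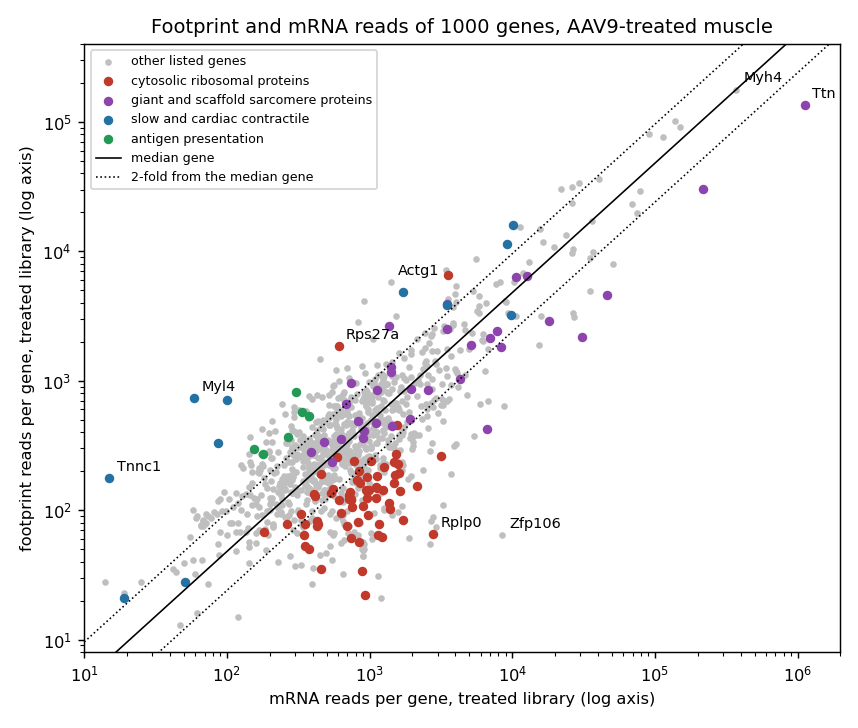
Footprint reads against mRNA reads of each of the 1000 listed genes in the treated libraries, 1 point per gene, both axes logarithmic; the solid line is the median gene and the dotted lines lie 2-fold from it. Ribosomal protein genes (red) lie mostly below the lower dotted line, and slow and cardiac contractile genes (blue) mostly above the upper one.

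The abundant muscle genes took different shares of the 2 kinds of read. These shares follow transcript length, so each gene is compared with itself and not with other genes. Ttn, the gene of titin, the elastic giant of the sarcomere, had the most mRNA reads, 26.5% (95% interval 26.5 to 26.6), and 8.15% (8.11 to 8.19) of the footprints. Myh4, the myosin heavy chain of the fastest fibres, had 8.79% (8.76 to 8.82) of mRNA reads and the largest footprint share, 10.7% (10.6 to 10.7). Neb, the thin-filament ruler nebulin, stood at rank 3 in mRNA reads and rank 10 in footprints, with 5.14% and 1.82%. The next mRNAs were Atp2a1, the calcium pump of fast fibres, with 3.51% of mRNA reads and 5.49% of footprints, and the fast and neonatal myosins Myh1 (3.28% and 6.14%), Myh2 (2.67% and 4.56%) and Myh8 (2.16% and 4.84%). Tpm1, Ckm and Acta1 completed the 10 genes with most mRNA reads, and each had a lower share of footprints than of mRNA reads. Their mRNA and footprint shares were 1.84% and 1.75% for Tpm1 (tropomyosin), 1.77% and 1.20% for Ckm (muscle creatine kinase) and 1.62% and 1.39% for Acta1 (skeletal actin). In the 10 genes with most footprints their places were taken by Myh13 (2.19% of footprints), Myh3 (2.03%) and Tnni2 (1.89%).

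**Figure D2:**
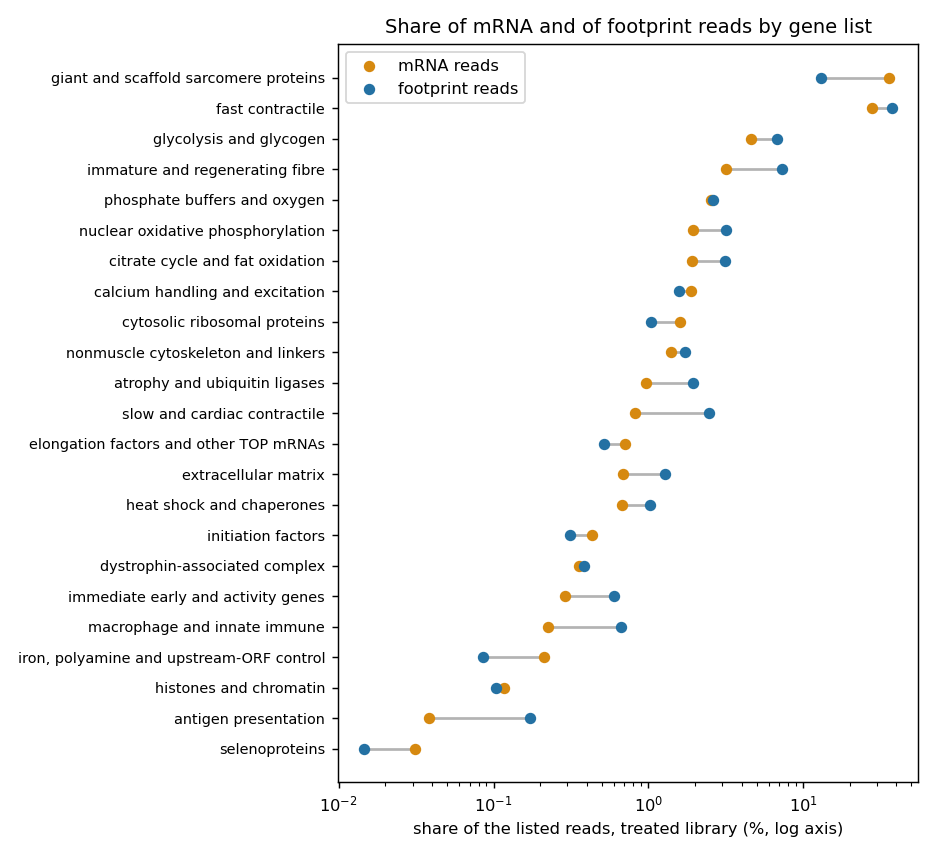
Share of the listed mRNA reads (orange) and footprint reads (blue) taken by each gene list in the treated libraries, in percent on a log axis. The giant and scaffold list went from 36.0% of mRNA reads to 13.1% of footprints, and the fast contractile list from 27.7% to 37.5%.

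Ribosomal protein mRNAs carried few footprints. Of the 68 listed genes of the cytosolic ribosome, 55 were lower and 2 higher. The median of the list was 3.17-fold below the median gene, −1.66 on the log2 scale. Over all genes compared 22.1% were lower. Together they held 1.61% of mRNA reads (1.59 to 1.62) and 1.03% of footprints (1.02 to 1.05). Small-subunit and large-subunit genes had like values: 22 of 26 and 33 of 41 were lower, with medians of −1.62 and −1.67. The higher of the 2 was Rps27a, whose protein is made as a fusion with ubiquitin. It had 609 and 1841 treated reads, 6.31-fold above the median gene (5.75 to 6.93). Many ribosomal protein genes have processed pseudogenes, and the sources used here do not say how reads that match several places were counted, so their values are uncertain. The same limit holds for any other gene below that has such copies.

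The lowest of them was Rplp0, a protein of the ribosomal stalk, with 2790 mRNA and 65 footprint reads in treated muscle and 32 and 491 in untreated muscle. It lay 20.6-fold below the median gene (16.1 to 26.7) in treated and 1.43-fold below (0.970 to 2.05) in untreated muscle. Rps12 had 928 and 22 reads in the treated pair and 14 and 110 in the untreated pair, and lay 20.2-fold below (13.3 to 32.4) and 2.80-fold below (1.48 to 4.90). In both stalk protein Rplp1 and small-subunit protein Rps3a the treated value was likewise the lower one. Like Rplp0 and Rps12, they were named as extremes of the treated value, a choice that favours this order, so nothing is read from it. Rplp1 lay 12.5-fold below (8.87 to 18.1) in treated and 1.58-fold below (1.03 to 2.31) in untreated muscle. Rps3a lay 9.84-fold below (7.90 to 12.4) in treated muscle, and in untreated muscle its interval held the median gene (1.04-fold below, 0.725 to 1.46). Rpl4, the lower gene with the most summed reads, had 3187 and 264 reads, 5.78-fold below (5.10 to 6.58). At the other end of the large subunit, Rpl27 had 588 and 259 reads and lay 1.09-fold below the median gene, with an interval of 0.938 to 1.26. The muscle paralog Rpl3l (1567 and 459 reads) and Rpl3 (408 and 134 reads) were called neither way, at 1.64-fold below (1.47 to 1.82) and 1.46-fold below (1.20 to 1.79). The list median in untreated muscle was −0.53, with 18 of 68 lower and 2 higher, where 13.5% of all genes were lower. The difference between the 2 pairs of libraries was not tested.

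The 5′ ends of these genes are shown because the TOP motif sits there. Each line gives 30 bases of RefSeq sequence (GRCm38.p6), 15 before and 15 from the annotated transcription start, 5′ to 3′ on the gene's strand, with an unbroken run of at least 8 C or T letters in capitals.
Gnb2l1: cggaggccgCTCTTTCTTTTTCTCCacagg
Rpl7a: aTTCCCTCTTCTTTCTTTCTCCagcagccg
Rpl15: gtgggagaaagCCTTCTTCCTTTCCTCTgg
Rps18: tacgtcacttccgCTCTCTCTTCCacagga
Rps6: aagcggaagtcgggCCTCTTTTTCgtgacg
Rps26: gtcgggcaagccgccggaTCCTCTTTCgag
Rplp0: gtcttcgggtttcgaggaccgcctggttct
Rps3a: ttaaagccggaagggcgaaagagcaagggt
The windows are chr11:48800345-48800374 (+) for Gnb2l1, chr2:26910792-26910821 (+) for Rpl7a, chr14:18270972-18271001 (−) for Rpl15 and chr17:33955651-33955680 (−) for Rps18. Those of Rps6, Rps26, Rplp0 and Rps3a are chr4:86857353-86857382 (−), chr10:128626492-128626521 (−), chr5:115559452-115559481 (+) and chr3:86142654-86142683 (−). The first 5 belong to genes called lower, between 2.71-fold (Rps6) and 4.24-fold (Gnb2l1) below the median gene. Rps26 has a run but was called neither way, at 1.16-fold below (0.977 to 1.38), and the windows of the lower genes Rplp0 and Rps3a hold no such run.

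Such a run was found in 21 of 51 ribosomal protein genes with a window (41.2%), in 3 of 8 elongation factor and other TOP genes, in 7 of 54 nuclear oxidative phosphorylation genes (13.0%) and in 2454 of 17492 protein-coding genes of the RefSeq table (14.0%). Over the listed genes the count was 156 of 806 (19.4%). Only the sense strand was searched, and the best of a gene's annotated starts was kept. Among the ribosomal protein genes the median loading was −1.52 log2 units with a run and −1.67 without one. For the elongation factor and other TOP genes it was −0.78 with a run and −2.22 without one. Of the 3 with a run, Gnb2l1 was lower, and Eef1a1 and Eef1a2 were called neither way. A match is a description of these letters, and an annotated start can lie off the start used in muscle.

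**Figure D3:**
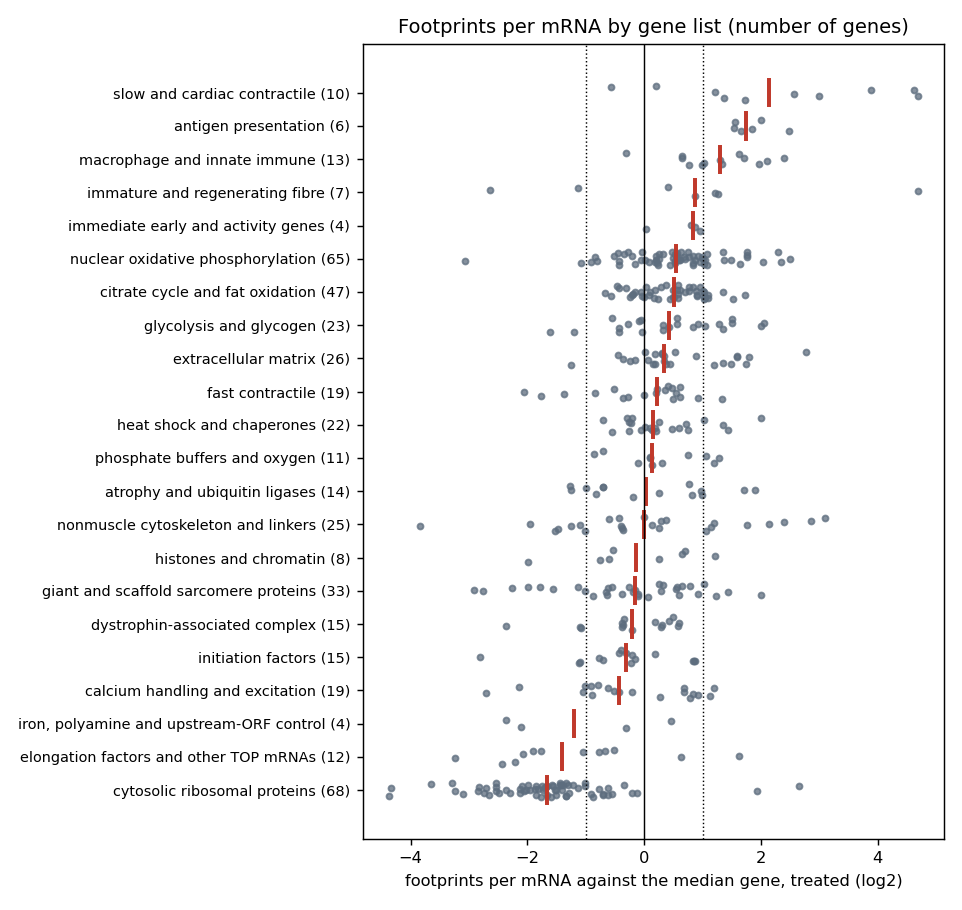
Footprints per mRNA against the median gene in treated muscle (log2), 1 grey point per gene over the read minimum, for each list with more than 2 such genes; red bars mark list medians and dotted lines 2-fold. Ribosomal protein genes had the lowest median (−1.66) and slow and cardiac contractile genes the highest (2.14).

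Other genes of the translation machinery also lay low. Of 12 elongation factor and other TOP genes 7 (58.3%) were lower and 1 higher, beside 22.1% lower and 17.6% higher over all genes. Their median was −1.41, and −0.14 in untreated muscle. Tpt1, the translationally controlled tumour protein, had 3749 mRNA and 190 footprint reads, 9.45-fold below the median gene (8.17 to 11). Eef2, the factor that moves the ribosome along the mRNA, had 6764 and 697 reads, 4.65-fold below (4.30 to 5.03), and in untreated muscle 150 and 3674 reads, 1.11-fold above (0.946 to 1.32). Gnb2l1, the ribosome scaffold RACK1, lay 4.24-fold below (3.54 to 5.10). The muscle elongation factor Eef1a2 (1.43-fold below, 1.36 to 1.5) and its widely expressed copy Eef1a1 (1.72-fold below, 1.61 to 1.83) were called neither way. The higher gene was Vim, the intermediate filament vimentin, at 3.10-fold above (2.84 to 3.38).

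Initiation factors stood nearer to the median gene, with a median of −0.31. Of 15 genes 0 were higher and 3 (20%) lower, close to the 22.1% lower over all genes, and against the listed totals 3 were higher and 1 lower. Eif4g2, an initiation scaffold that does not bind the cap-binding protein, had 5412 and 371 reads and lay 6.99-fold below (6.29 to 7.78). The cap-complex scaffold Eif4g1 lay 1.63-fold below (1.53 to 1.74), and the helicase Eif4a1 lay 1.84-fold above (1.62 to 2.08). Of the 4 listed genes known for translational control by iron, polyamines or upstream reading frames, the ferritin heavy chain Fth1 lay 4.29-fold below (3.96 to 4.65) and Amd2, of polyamine synthesis, 5.17-fold below (4.42 to 6.07). The ferritin light chain Ftl1 (1.24-fold below, 1.07 to 1.44) and the transferrin receptor Tfrc (1.37-fold above, 1.20 to 1.58) were called neither way. The selenoprotein Gpx4, a lipid peroxidase, lay 4.05-fold below (3.40 to 4.84).

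Slow and cardiac contractile genes lay mostly above the median gene. Of 11 listed genes 10 were over the read minimum, and of these 8 were higher and 0 lower, with a median of 2.14 log2 units, a 4.42-fold distance. Over all genes 17.6% were higher and 22.1% lower. The minimum is on summed reads, and Tnnc1 passed it through its footprints while Tnnt1 did not. With no minimum the median was 1.72. They took 0.817% of mRNA reads and 2.48% of footprints. Myh7, Myh6, Myh7b and Actc1 of this list belong to the myosin heavy chain and actin families, whose near-identical copies could have shared reads. Their calls and the list's share are therefore uncertain. The highest of the list was Myl4, a myosin light chain of embryonic muscle and the atria. It had 59 mRNA and 729 footprint reads in treated muscle and 32 and 3277 in untreated muscle. It lay 25.8-fold above the median gene (19.8 to 34.2) in treated and 4.66-fold above (3.29 to 6.82) in untreated muscle. Tnnc1, the slow and cardiac troponin C, rested on 15 treated mRNA reads beside 176 footprint reads, 24.5-fold above (14.5 to 44.7), while its untreated reads were 18 and 444, 1.12-fold above (0.701 to 1.91). Casq2, the calsequestrin of slow and cardiac fibres, had 101 and 712 treated reads, 14.7-fold above (11.9 to 18.3), and 103 and 3144 untreated reads, 1.39-fold above (1.14 to 1.71). Tpm3, a slow tropomyosin, had 86 and 328 treated reads, 7.96-fold above (6.26 to 10.2), and 19 and 792 untreated reads, 1.89-fold above (1.21 to 3.16). These 4 genes had few mRNA reads in the treated library, and all 4 treated intervals lay above the untreated ones. They were named as extremes of the treated value, a choice that favours this order, so nothing is read from it. Tnnt1, the slow troponin T, had 19 and 21 treated reads, under the minimum, and was not compared. The list median was 0.74 in untreated muscle, with 4 of 11 genes higher, beside 10.4% over all genes.

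The slow and cardiac myosin heavy chains were high in both pairs of libraries. Myh7, the slow myosin, had 9217 and 11379 treated reads, 2.58-fold above (2.51 to 2.65), and 105 and 25854 untreated reads, 11.2-fold above (9.24 to 13.7). Myh6, the cardiac alpha myosin, lay 3.30-fold above (3.21 to 3.38) in treated and 7.41-fold above (6.43 to 8.59) in untreated muscle, and Myh7b 5.93-fold (5.61 to 6.27) and 9.33-fold (7.15 to 12.4). Here the untreated value was the higher one of each gene. Near-identical copies of myosin heavy chains could have shared reads, so these values are uncertain. Mybpc1, the slow myosin-binding protein C, was called neither way at 1.48-fold below (1.42 to 1.54).

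Fast contractile genes lay near the median gene, with a median of 0.22. Of 19 genes 1 (5.26%) was higher and 3 (15.8%) lower, fewer than the 17.6% and 22.1% over all genes. Myh4 had 373461 mRNA and 177555 footprint reads and a value of 0.992 of the median gene (0.987 to 0.998), and Tnni2, the fast troponin I, was the higher gene at 2.52-fold (2.47 to 2.56). The lower genes were Mybpc2, the fast myosin-binding protein C, at 4.16-fold below (4.01 to 4.32), the fast Z-disc protein Actn3 at 3.39-fold below (3.29 to 3.49) and Myoz1, another Z-disc protein, at 2.60-fold below (2.45 to 2.77). In untreated muscle 0 of 19 were lower and 1 was higher, beside 13.5% and 10.4% over all genes.

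Paralogs of contractile and calcium-store genes were set side by side in 7 pairs, which were chosen after the values had been seen and so are a description. Not every pair sets a fast gene against a slow one. Actn3 and Actn2 are both in the fast contractile list, and Myl4 is also in the immature fibre list. Tnnc2, the fast troponin C, lay at 1.15 times the median gene and the slow Tnnc1 at 24.5. Casq1 and Casq2 lay at 1.33 and 14.7, Tpm2 and Tpm3 at 1.17 and 7.96, and Myl1 and Myl4 at 0.822 and 25.8. For the other pairs the distance was smaller: Actn3 and Actn2 lay at 0.295 and 1.46, Mybpc2 and Mybpc1 at 0.240 and 0.676, and Myh4 and Myh7 at 0.992 and 2.58. In untreated muscle the values were 1.25 and 11.2 for Myh4 and Myh7, 1.15 and 4.66 for Myl1 and Myl4, and 0.935 and 1.89 for Tpm2 and Tpm3. They were 1.01 and 1.12 for Tnnc2 and Tnnc1, 0.782 and 0.801 for Mybpc2 and Mybpc1, 0.908 and 0.896 for Actn3 and Actn2, and 1.72 and 1.39 for Casq1 and Casq2. With Tpm1 in place of Tpm2, the values of Tpm1 and Tpm3 were 0.777 and 7.96 in treated and 1.63 and 1.89 in untreated muscle.

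Among genes of immature and regenerating fibres 3 of 7 (42.9%) were higher and 2 (28.6%) lower, beside 17.6% and 22.1% over all genes. Their share went from 3.16% of mRNA reads to 7.29% of footprints. Myh3, the embryonic myosin, had 29282 and 33820 reads, 2.41-fold above (2.37 to 2.45), and Myh8, the neonatal myosin, 91577 and 80493 reads, 1.83-fold above (1.82 to 1.85). Myh3 and Myh8 held most of the list's 121293 footprint reads. Both belong to the myosin heavy chain family, whose near-identical copies could have shared reads, so the list's share is uncertain. Actc1, the cardiac actin also made in young fibres, lay 2.31-fold above (2.2 to 2.42). Peg3, an imprinted zinc finger gene, had 828 and 64 reads and lay 6.2-fold below (4.80 to 8.12), and the intermediate filament Des lay 2.2-fold below (2.09 to 2.31).

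The giant and scaffold list did not stand far from the other genes: 8 of 33 (24.2%) were lower and 4 (12.1%) higher, beside 22.1% and 17.6% over all genes, and the median was −0.15. Against the listed totals 6 were lower and 6 higher. Several of its abundant members lay well below the median gene. Ttn had 1126793 mRNA reads and 135680 footprint reads, 3.98-fold below the median gene (3.96 to 4.00), and 10853 and 107397 untreated reads, 2.22-fold below (2.18 to 2.27). Neb had 218348 and 30362 treated reads, 3.45-fold below (3.40 to 3.49), and 1788 and 52116 untreated reads, 1.32-fold above (1.26 to 1.39). Titin was thus below the median gene in both pairs of libraries, and nebulin in the treated pair alone. Cmya5 and Xirp2, large proteins of the Z-disc region and of sites of mechanical stress, lay 4.79-fold (4.65 to 4.94) and 6.8-fold (6.51 to 7.10) below in treated muscle. Ankrd23, a titin-binding ankyrin repeat protein, was the lowest of the list at 7.56-fold below (6.85 to 8.36), from 6645 and 421 reads. Other large members did not lie low in this way: Flnc, filamin C, lay at 0.646 (0.617 to 0.676), Nrap at 1.05 (1.02 to 1.08) and the M-band protein Myom2 at 1.25 (1.21 to 1.29) times the median gene.

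The higher genes of the list were the small proteins Hspb1 (4.02-fold above, 3.77 to 4.30), Cryab (2.70-fold, 2.45 to 2.97) and Tcap (2.35-fold, 2.24 to 2.46), with Tmod1 at 1.03 log2 units. Hspb1 and Cryab are small heat shock proteins and Tcap is a titin cap protein. The list's 36.0% of mRNA reads and 13.1% of footprints came largely from Ttn.

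Of 19 genes of calcium handling and excitation 4 (21.1%) were lower and 2 (10.5%) higher, no more than over all genes (22.1% and 17.6%), and against the listed totals 2 were lower and 5 higher. The median was −0.42 in treated and 0.41 in untreated muscle. Cacna1s, the calcium channel that senses voltage in the fibre membrane, had 8760 and 640 treated reads, 6.56-fold below (6.05 to 7.12), and 78 and 2319 untreated reads, 1.35-fold above (1.08 to 1.72). The junctophilins, which tie the calcium store to the surface membrane, lay 4.40-fold (3.73 to 5.21) below for Jph1 and 2.06-fold (1.77 to 2.40) below for Jph2. Ryr1, the calcium release channel, was called neither way at 1.87-fold below (1.83 to 1.92), from 34833 and 8906 reads. Its partners Trdn, triadin, at 1.61-fold above (1.55 to 1.67) and Asph, which also encodes junctin, at 2.28-fold above (1.97 to 2.65) lay on the other side, and Asph was called higher.

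In the dystrophin-associated complex 3 of 15 genes (20%) were lower and 0 higher, with a median of −0.21, beside 22.1% lower over all genes. Against the listed totals and the authors' normalized values Dmd alone was lower, since Utrn (−0.81) and Ank3 (−0.79 against the listed totals) came within 2-fold. Dmd (NM_007868), the target of the vector, had 1959 mRNA and 183 footprint reads in treated muscle and lay 5.13-fold below the median gene (4.41 to 6.0). In untreated muscle it had 25 and 80 reads and lay 6.87-fold below (4.20 to 10.9), an interval that overlaps the treated one. Dystrophin mRNA was thus among the less occupied transcripts of both pairs, and counts per gene do not show where on the transcript the reads lay. Utrn (NM_011682), its relative utrophin, had 769 and 172 treated reads, 2.14-fold below (1.81 to 2.54), and 18 and 348 untreated reads, 1.14-fold below (0.666 to 1.83). Ank3, a membrane adaptor, lay 2.12-fold below (1.87 to 2.40). The laminin chains of the basement membrane lay near the median gene in treated muscle, with Lama2 at 1.15-fold below (1.06 to 1.26) and Lamc1 at 1.49-fold above (1.37 to 1.62). In untreated muscle, on 20 mRNA reads each, Lama2 lay 4.80-fold above (3.10 to 7.88) and Lamc1 6.08-fold above (3.93 to 9.98). There 5 of the 15 genes were higher and 1 lower, beside 10.4% and 13.5% over all genes.

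The lists of energy metabolism had medians above the median gene, and their shares of higher genes were near or moderately above the 17.6% over all genes. Of 65 nuclear genes of oxidative phosphorylation 16 (24.6%) were higher and 2 (3.08%) lower, beside 22.1% lower over all genes, and 25 were higher against the listed totals. The median was 0.55 in treated and −0.02 in untreated muscle. Their share went from 1.94% of mRNA reads (1.92 to 1.95) to 3.16% of footprints (3.14 to 3.19). The 31 complex I genes had a median of 0.56, the 9 of complex III 0.76, the 10 of cytochrome oxidase 0.24 and the 13 of ATP synthase 0.52, with 8, 2, 2 and 4 of them higher. Ndufab1, the acyl carrier subunit of complex I, had 243 and 656 treated reads, 5.64-fold above (4.86 to 6.56), and 43 and 1122 untreated reads, 1.19-fold above (0.875 to 1.65). Uqcrq, of complex III, had 175 and 427 treated reads, 5.09-fold above (4.26 to 6.11), and 45 and 723 untreated reads, 1.37-fold below (0.99 to 1.85). The 2 lower genes of the list were both of complex I. Of these Ndufa6 lay lowest, with 1046 and 60 reads, 8.35-fold below (6.44 to 11). It was below the median gene in untreated muscle too, 2.12-fold (1.42 to 3.07). The alpha and beta subunits of the ATP synthase, Atp5a1 and Atp5b, lay at 1.17 (1.13 to 1.21) and 1.19 (1.16 to 1.23) times the median gene.

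The citrate cycle and fat oxidation list had 10 of 47 genes higher (21.3%) and 0 lower, beside 17.6% and 22.1% over all genes. Its median was 0.52, and 17 were higher against the listed totals. Sdhc and Sdhd, the membrane anchors of succinate dehydrogenase, lay 3.33-fold (2.91 to 3.81) and 2.88-fold (2.48 to 3.36) above. The adenine nucleotide carrier Slc25a4 was the lowest at 1.60-fold below (1.53 to 1.66). The glycolysis and glycogen list had 7 of 23 genes higher (30.4%) and 2 lower (8.70%), beside 17.6% and 22.1% over all genes. Against the listed totals 9 were higher and 1 lower. The list's share went from 4.58% of mRNA reads to 6.74% of footprints. Pfkm, the muscle phosphofructokinase, had 22008 and 30066 reads, 2.85-fold above (2.80 to 2.90), and Pkm2, pyruvate kinase, 2.84-fold above (2.77 to 2.91). Ldhb, the lactate dehydrogenase of oxidative tissue, lay 4.16-fold above (3.50 to 4.96) on 198 mRNA reads. Gapdh, between those enzymes in the pathway, had 51025 and 7955 treated reads, 3.07-fold below (3.0 to 3.15), and 1545 and 50943 untreated reads, 1.5-fold above (1.42 to 1.58). Glycogen phosphorylase, Pygm, lay 1.02-fold below (1.00 to 1.04). Among 11 phosphate buffer and oxygen genes 3 (27.3%) were higher and 0 lower, beside 17.6% and 22.1% over all genes. Against the listed totals 4 were higher and 0 lower. Ckmt2, the mitochondrial creatine kinase, lay 2.44-fold above (2.34 to 2.55) and myoglobin, Mb, 2.28-fold above (2.18 to 2.39). Ckm was called neither way at 1.81-fold below (1.78 to 1.84).

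All 6 listed genes of antigen presentation were higher, beside 17.6% over all genes. Their median was 1.75 in treated and 2.13 in untreated muscle. B2m, the light chain common to class I molecules, had 307 and 825 treated reads, 5.61-fold above (4.91 to 6.42), and 36 and 3619 untreated reads, 4.57-fold above (3.29 to 6.54). The class II gene H2-Aa lay 2.89-fold above (2.46 to 3.40) and the class I gene H2-D1 2.93-fold above (2.56 to 3.35). The macrophage and innate immune list had 8 of 13 genes higher (61.5%) and 0 lower, beside 17.6% and 22.1% over all genes. Its median was 1.30. Apoe, a lipid carrier, lay 4.29-fold above (3.88 to 4.74) and Lyz2, the macrophage lysozyme, 3.89-fold above (3.39 to 4.47), but the complement gene C1qa and the protease gene Ctss were called neither way, both at 1.57-fold above (1.16 to 2.12 and 1.24 to 1.98). The 4 listed macrophage markers Lyz2, Ctss, C1qa and C1qb, of 12 looked for, held 130.2 CPM of treated mRNA and 437.5 CPM of treated footprints, and 1151 and 1153 in untreated muscle. Genes were listed by their untreated mRNA reads, which favours markers high in that library. No difference between the groups is therefore read from these sums. In such bulk samples fewer cells of a type and less RNA in each cell cannot be told apart.

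The extracellular matrix list had 8 of 26 genes higher (30.8%) and 1 lower (3.85%), beside 17.6% and 22.1% over all genes. Its median was 0.34. In untreated muscle 14 of 26 were higher, beside 10.4% over all genes, 0 were lower and the median was 1.41. Igfbp5, a secreted binding protein of insulin-like growth factors, had 447 and 1462 treated reads, 6.83-fold above (6.14 to 7.61), and 17 and 1203 untreated reads, 3.22-fold above (2.0 to 5.54). Sparc, a collagen-binding protein, lay 3.47-fold above (3.12 to 3.86) and the proteoglycan Dcn 2.80-fold above (2.69 to 2.92). The fibrillar collagens did not share one value. Col3a1 had 3506 and 703 reads and was the lower gene at 2.39-fold below (2.2 to 2.59), Col1a2 lay at 1.01 (0.926 to 1.09) and Col1a1 at 1.36 (1.23 to 1.5) times the median gene. The 5 listed fibroblast markers held 2025 CPM of treated mRNA and 3910 CPM of treated footprints, and 18909 and 22199 CPM in untreated muscle. These too were listed by their untreated mRNA reads, so no difference between the groups is read from the sums.

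Nonmuscle cytoskeleton genes were spread widely, with 8 of 25 higher (32%), 7 lower (28%), 10 called neither way and a median of −0.01. Over all genes 17.6% were higher and 22.1% lower, and against the listed totals 4 of the 25 were lower. The high end held Actg1 and Actb, the cytoplasmic actins, at 8.55-fold (8.07 to 9.07) and 4.38-fold (4.21 to 4.57), and Myh9, nonmuscle myosin, at 7.25-fold above (6.71 to 7.84). Tmsb4x, the actin-binding thymosin, had 146 and 366 reads, 5.23-fold above (4.31 to 6.38), and tubulin genes Tuba1b, Tuba1a and Tubb5 were higher too, at 1.06, 1.14 and 1.76 log2 units. The low end held the kinesin Kif1c, with 3267 and 110 reads, 14.2-fold below (11.8 to 17.4), and the large linkers Dst (3.88-fold below, 3.70 to 4.08), Macf1 (2.78-fold, 2.50 to 3.11) and Ahnak (2.39-fold, 2.30 to 2.48). In untreated muscle Actg1 and Actb were high as well, at 9.45-fold (7.45 to 12.2) and 5.35-fold (4.60 to 6.27) above, while Dst lay 1.5-fold below (1.22 to 1.82) and Ahnak 1.12-fold above (0.977 to 1.28).

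The smaller lists held a few genes far from the median. Of 14 atrophy and ubiquitin ligase genes 2 (14.3%) were higher and 3 (21.4%) lower, near the 17.6% and 22.1% over all genes, but 6 and 0 against the listed totals. Trim72, a membrane repair protein, lay 3.73-fold above (3.23 to 4.32) and the very large ligases Huwe1 and Herc1 2.38-fold (2.19 to 2.58) and 2.42-fold (2.17 to 2.71) below. Of 22 chaperone genes 4 (18.2%) were higher, close to the 17.6% over all genes, and 0 lower, and the abundant Hspa8 (0.965, 0.929 to 1.00) and Hsp90ab1 (0.835, 0.789 to 0.883) stood close to the median gene. The 4 listed immediate early and activity genes were called neither way against the median gene, but 3 were higher against the listed totals. Pdk4, a brake on pyruvate oxidation, lay at 1.95 (1.87 to 2.02) times the median gene. Abra, an activator of serum response factor, lay at 1.75 (1.66 to 1.85) times it. Against the listed totals Pdk4 and Abra had values of 1.25 and 1.10 log2 units. Among 8 histone and chromatin genes Mll2, a histone methyltransferase, lay 3.97-fold below (3.43 to 4.61) and the histone Hist1h2bc 2.33-fold above (1.70 to 3.20).

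Over the whole table the 15 genes furthest above the median gene, ranked by the interval bound nearest to it, were those described above and Acta2, the actin of smooth muscle. Acta2 had 916 and 4140 treated reads, 9.43-fold above (8.78 to 10.1), and lay 7.48-fold above (5.91 to 9.62) in untreated muscle. Of the 15 furthest below, 5 were ribosomal protein genes and 10 were not. Zfp106, an RNA-binding zinc finger protein, was the lowest of all genes, with 8471 mRNA and 64 footprint reads, 63.4-fold below (49.6 to 82.4), and 70 and 316 untreated reads, 4.87-fold below (3.71 to 6.33). Ptp4a2, a phosphatase, had 1208 and 21 reads, 27.6-fold below (17.9 to 44.7), and lay 8.80-fold below (4.60 to 16.1) in untreated muscle. Ccng1, the cyclin G1 gene, had 2667 and 55 treated reads, 23.2-fold below (17.8 to 30.9), and 18 and 268 untreated reads, 1.48-fold below (0.862 to 2.38). The Y-box RNA-binding protein Ybx1 lay 19-fold below (15.1 to 24.3) in treated and 1.20-fold below (0.755 to 1.83) in untreated muscle. All these genes were picked as extremes of the treated value, so nothing is read from how near their untreated values lie to the median gene. Zfp277 was low in both pairs, 17.7-fold (12.4 to 26.1) and 13.7-fold (8.59 to 21.6) below. Anapc5, of the anaphase-promoting complex, and Sh3glb1, endophilin B1, lay 15.1-fold (12.2 to 18.8) and 14.8-fold (11.4 to 19.4) below in treated muscle.

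**Figure D4:**
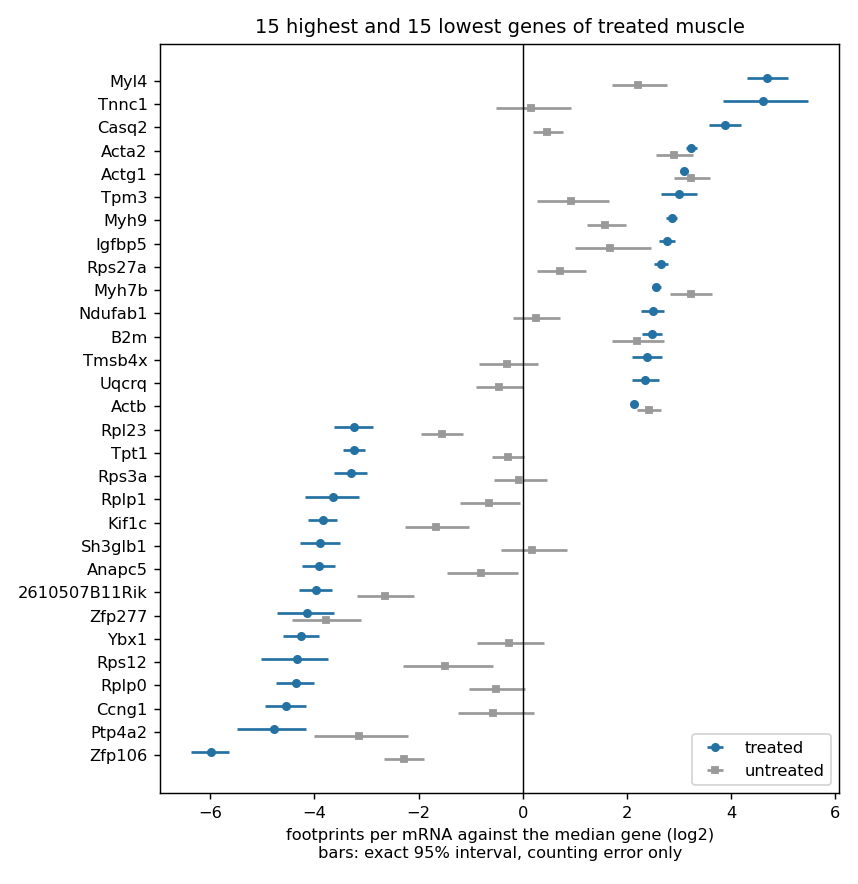
Footprints per mRNA against the median gene (log2) of the 15 highest and 15 lowest genes of treated muscle, with the treated value in blue and the untreated value in grey; bars are exact 95% intervals of counting error. The values range from Zfp106, 63.4-fold below, to Myl4, 25.8-fold above. The genes were picked as extremes of the treated value, so nothing is read from how near to 0 their untreated values lie.

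Several of the high genes belong to families with near-identical copies, between which the counting could have split or shared reads. Of 6 listed actins 5 were higher, of 10 myosin heavy chains 5, of 9 class I genes 9 and of 13 histone H2B genes 12. So were 3 of 4 ubiquitin genes, 2 of 2 enolases, 2 of 2 lysozymes and 3 of 3 histone H4 genes. Over all genes 17.6% were higher and 22.1% lower. The 9 class I genes had 142 to 379 mRNA reads each. A cluster of 8 zinc finger genes was lower in 8 of 8, and its genes had nearly the same reads, 880 to 915 of mRNA and 44 to 50 footprints. Single values in these families are uncertain. Without the 57 listed genes of such families 144 genes were higher and 200 lower.

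Loading was lower among genes with more mRNA reads. In 4 groups of about 250 genes each, by treated mRNA reads from few to many, the median was 0.70, 0.07, −0.39 and −0.43 log2 units. The genes called higher numbered 96, 38, 17 and 24 and those called lower 11, 40, 83 and 86. Since mRNA reads are the denominator, part of this order follows from the measure, and how much was not tested. Set against genes of like mRNA reads (10 equal bins, a choice made after seeing the data), the ribosomal protein median was −1.44 and the slow and cardiac median 1.96, near their values of −1.66 and 2.14, but the antigen presentation median was 1.16 in place of 1.75. The giant and scaffold list and the dystrophin-associated complex changed side, from −0.15 to 0.24 and from −0.21 to 0.23.

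The untreated pair of libraries, which shares no library with the treated pair, gave a related but not identical order. Across 996 genes the 2 log2 values correlated with r of 0.455 and rho of 0.362, with r of 0.548 over the 245 genes with at least 50 untreated mRNA reads, and with r of 0.477 over the 115 with at least 100. In untreated muscle 104 of 998 genes (10.4%) were higher and 135 (13.5%) lower, on wider intervals. Of the 175 genes higher in treated muscle, 52 were higher, 9 lower and 114 neither in untreated muscle. Of the 220 lower in treated muscle, 66 were lower, 5 higher and 148 neither, and 1 had too few untreated reads. B2m, the cytoplasmic actins and the cardiac myosins were high in both pairs, whereas Rplp0, Eef2, Neb, Cacna1s and Gapdh were low in the treated pair and lay within 2-fold of the median gene in the untreated pair. Several of these genes were named as extremes of the treated value, which favours untreated values nearer to the median gene.

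**Figure D5:**
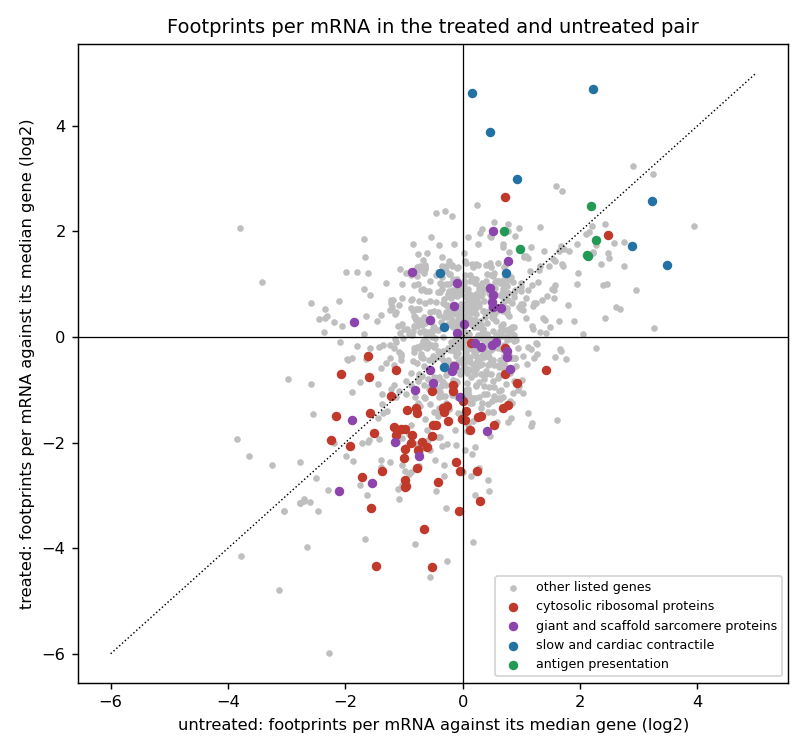
Footprints per mRNA of each gene in treated (vertical axis) and untreated (horizontal axis) muscle, each against the median gene of its own pair of libraries (log2); the dotted line marks equal values. Most ribosomal protein genes (red) lie below the dotted line, and antigen presentation genes (green) lie in the upper right.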

How the data were processed

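The authors deposited 1 table of 1000 genes with a symbol, a RefSeq identifier and, per the file headers, a read count and a normalized read count for each of 4 libraries. The deposited counts are whole numbers. The authors' deposited normalized values, read here as CPM, are the counts scaled by 1 factor in each library (100% of genes, within 0.1). The values allow that reading but no source states it. The submitters' processing notes name Trimmomatic, STAR, edgeR and the build mm9 but give no roles or versions. The counter, the strand setting and the rule for multiply mapping reads were not given in the sources used here. Per the labels' protocols, frozen sections were homogenised with cycloheximide, which holds ribosomes in place, and total RNA and small RNA kits gave 50 nt reads. The table has 0 further columns of per-sample values.

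Raw counts were used. Footprint over mRNA counts were divided by their median over genes with at least 50 summed reads, with exact Clopper-Pearson 95% intervals (scipy 1.17.1, Python 3.11.15). Alternatives used TMM (edgeR 4.0.16), DESeq2 1.42.0 size factors, other scalings, minimums and fold thresholds. Of the identifiers 996 matched RefSeq, and 76 symbols differ from current ones; promoter windows were found for 809 listed genes. Named genes are the 15 highest and 15 lowest, Dmd, Utrn, the 10 most read genes of each treated library and 4 or fewer examples per list from 25 gene lists (highest, lowest and the 2 with most reads). A few genes that this rule names are left out of the text. Other genes were added after their values were seen, among them the remaining members of small sets. Members and lists were chosen with earlier results of these data known. The mitochondrially encoded and noncoding RNA lists had 0 listed genes. Footprints per mRNA by protein length were not analysed here.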

Additional observations from a re-analysis of the deposited data

Results flagged for a closer look

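Selk, which encodes a selenoprotein of the endoplasmic reticulum, was called higher in treated and lower in untreated muscle. Its value against the median gene was 1.05 log2 units in treated muscle, from 99 mRNA and 98 footprint reads, and −3.42 in untreated muscle, from 37 mRNA and 76 footprint reads. With 1 library per group the difference was not tested.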

How the results depend on the processing

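Every value rests on 1 library per group, so no result has a replicate check and leaving out a replicate was not possible. No paired analysis was possible because each group has 1 library and the labels give no replicate numbers. The number of genes called higher was 300 at a 1.5-fold and 26 at a 4-fold threshold, and the number called lower was 87 at 4-fold, against 175 and 220 at 2-fold. Under the 6 other scalings tried, the authors' values and a prior of 0.5 the counts were within 1.5 times these. With a minimum of 200 summed reads the selenoprotein median was −2.02, for the 1 gene left, and the histone and chromatin median −0.57. With no minimum, which adds Tnnt1, the slow and cardiac median was 1.72. Set against genes in the same of 10 bins of treated mRNA reads, a choice made after seeing the data, medians were 0.49 for fast contractile, 1.15 for immature fibre, 0.24 for giant and scaffold, 0.23 for dystrophin complex, 0.61 for matrix, 1.16 for antigen presentation, 0.70 for glycolysis, 0.71 for citrate cycle and fat oxidation, 0.67 for phosphate buffer, 0.34 for atrophy and 1.30 for immediate early genes; the cause was not tested. In 55 other cases a list median moved by no more than the typical counting interval of its genes. Under the other scalings the value of a named gene left its own interval in 222 cases and stayed inside in 513. Of the 105 named genes 4 lost a lower call and 7 gained a higher one against the listed totals, and as many against the authors' values. Against the listed totals Utrn (−0.81), Col3a1 (−0.97), Ahnak (−0.96) and Herc1 (−0.99) came within 2-fold, and Abra (1.10), Pdk4 (1.25) and Eif4a1 (1.17) were among those that passed it. The planned comparison by protein length was not run. The 125236 untreated mRNA reads limit the precision of the untreated values.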

Other observations

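Besides Selk, 13 genes were called in opposite directions in the 2 pairs of libraries, and they are named here because their values were seen. Higher in treated and lower in untreated muscle were Crip1 (1.86 and −1.68 log2 units), Tagln2 (1.51 and −1.67), the adenine nucleotide carrier Slc25a5 (1.28 and −1.07), Ndufc2 of complex I (1.01 and −1.30), Blmh, Gng11 and 2 genes known by clone names. Lower in treated and higher in untreated muscle were Gnas, a G protein subunit (−1.57 and 1.61), the lysosomal membrane protein Lamp1 (−1.62 and 1.17), the phosphatase and kinase catalytic subunits Ppp1ca (−1.68 and 1.17) and Prkaca (−1.44 and 1.11), and Smyd2 (−1.05 and 1.03). Their untreated values rest on 14 to 83 mRNA reads each, and the differences were not tested.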
